A study of Mus musculus with 24 samples.

Results

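The 4 class III POU genes of the mouse, Pou3f1, Pou3f2, Pou3f3 and Pou3f4, and the long noncoding RNA Pantr1 were followed through CTCF loss in embryonic stem (ES) cells and in differentiating cells. The members were chosen by gene name: 5 of the 51697 genes in the count table. RNA-seq was done on F123 mouse ES cells, a hybrid line, whose CTCF carries an auxin-inducible degron (AID), so that auxin leads to loss of the CTCF protein. All 24 libraries, 2 in each of 12 groups, came from this degron line, and auxin-treated cells without a degron were not analysed here. Each ml of medium received 1 µl of auxin at 500 mM. The ES cells were grown in medium with serum replacement and LIF and had 0, 24, 48 or 96 h of auxin. The neural progenitor differentiation was run without auxin (control) or with auxin and sampled on days 2, 4 and 6. In 2 washout groups auxin was removed on day 4 or on day 6 and the cells were taken 2 days later. Whether the 2 libraries of a group stem from different cultures is not stated in the labels, and the spread that the p-values rest on may therefore be technical.

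The Pou3f proteins are transcription factors that bind DNA through a POU-specific domain and a POU homeodomain, often beside a SOX factor. Pou3f1 (Oct6, SCIP) is known from the epiblast, from early neural commitment and from Schwann cells, whereas Pou3f2 (Brn2) and Pou3f3 (Brn1) act together in cortical progenitors and in the production of upper-layer neurons. Pou3f4 (Brn4) acts in the inner ear, the striatum and other parts of the neural tube. Pantr1 is a noncoding gene transcribed away from Pou3f3.

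In the GENCODE vM21 annotation of GRCm38 (mm10), each of the 4 Pou3f genes is a single exon. Pou3f1 lies on chromosome 4 at 124656807 to 124660655 on the plus strand, and Pou3f2 on the same chromosome at 22482780 to 22488366 on the minus strand. Pou3f3 lies on chromosome 1 at 42695768 to 42703176 on the plus strand, and Pou3f4 on chromosome X at 110814280 to 110817207 on the plus strand. Pantr1 covers chromosome 1 from 42590782 to 42694842 on the minus strand, with 24 distinct exons over its isoforms. The start sites of Pantr1 and Pou3f3 are 926 bases apart and point away from each other. A sense-overlapping transcript, AC122898.1, covers the start of Pou3f3, and the antisense gene Gm2164 covers the start of Pou3f1. Neither has an entry in the count table. AC122898.1 lies on the same strand as Pou3f3, so its reads cannot be told apart from those of Pou3f3 by strand. The strand setting of the counting is not given in the sources used here, so reads from Gm2164 cannot be told apart from those of Pou3f1 either.

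The 4 Pou3f genes resemble each other most where they encode the POU domains, and the 60 coding bases most alike among them are shown to let a reader see how far reads could be confused. Capitals mark the 10 of 60 positions at which the genes are not all identical. The stretch lies at chr4:124658556-124658615 (plus strand), chr4:22487166-22487225 (minus strand), chr1:42698193-42698252 (plus strand) and chrX:110815137-110815196 (plus strand) of GRCm38, in the order below.
Pou3f1: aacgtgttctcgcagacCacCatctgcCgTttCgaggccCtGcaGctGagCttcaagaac
Pou3f2: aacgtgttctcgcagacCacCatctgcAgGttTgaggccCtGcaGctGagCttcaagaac
Pou3f3: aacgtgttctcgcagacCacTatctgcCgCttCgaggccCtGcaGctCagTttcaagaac
Pou3f4: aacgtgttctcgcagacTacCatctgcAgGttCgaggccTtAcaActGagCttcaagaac
Against Pou3f2, Pou3f1 matched at 57 of the 60 bases, Pou3f4 at 55 and Pou3f3 at 54. The longest exact run that any 2 of the 4 transcripts shared was 38 bases, between Pou3f1 and Pou3f2, and the other pairs shared runs of at most 29 bases. No window of 50 bases in any of the 4 transcripts occurred exactly in another.

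The RefSeq promoter table (GRCm38.p6, 250 bases before to 50 after the start) held 3 of the 5 members. It held no entry for Pou3f1 and Pantr1. The part before the GENCODE start is printed for the 3 that it held, with CpG dinucleotides in capitals. For Pou3f4 the GENCODE start lies before the RefSeq start, so that only 151 bases with 3 CpGs are printed. The stretches are chr4:22488367-22488616 (minus strand) for Pou3f2, chr1:42695518-42695767 (plus strand) for Pou3f3, which lies between the starts of Pantr1 and Pou3f3, and chrX:110814129-110814279 (plus strand) for Pou3f4.
Pou3f2: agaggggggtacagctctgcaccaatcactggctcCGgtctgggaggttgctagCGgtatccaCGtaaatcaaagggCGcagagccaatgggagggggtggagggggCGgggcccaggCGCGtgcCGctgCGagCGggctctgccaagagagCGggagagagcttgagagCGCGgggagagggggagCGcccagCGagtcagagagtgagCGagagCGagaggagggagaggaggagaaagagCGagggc
Pou3f3: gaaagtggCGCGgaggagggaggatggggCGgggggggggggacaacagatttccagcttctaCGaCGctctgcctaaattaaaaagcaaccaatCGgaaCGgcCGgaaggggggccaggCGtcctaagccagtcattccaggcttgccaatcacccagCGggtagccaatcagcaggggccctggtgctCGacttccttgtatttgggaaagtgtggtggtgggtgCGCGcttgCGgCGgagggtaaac
Pou3f4: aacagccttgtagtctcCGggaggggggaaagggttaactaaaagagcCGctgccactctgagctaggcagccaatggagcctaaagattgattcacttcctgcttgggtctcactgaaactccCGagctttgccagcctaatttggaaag
The full windows, with the bases after the start, held 24 CpGs for Pou3f2, 18 for Pou3f3 and 15 for Pou3f4, beside a median of 7 over 32851 promoters. Their GC share was 67.7%, 60.3% and 57.7%, beside a median of 52.7%. A CTCF core motif, the octamer ATGCAAAT and the SOX cores ACAAAG and ACAATG, searched on both strands, had no match in these 3 windows. They occurred in 2.43%, 1.74%, 18.7% and 12.6% of all promoters, and their absence says only that these letters are not in these windows.

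The libraries held 24696374 to 72048935 counts, with 24696374 to 29909368 in the ES libraries numbered 1, 51686150 to 61681404 in those numbered 2, and 51053184 to 72048935 in the differentiation libraries. Levels are given as CPM, counts scaled to the TMM-normalised library size, and per kb of exon where genes are compared. Ctcf mRNA was at 172 to 287 CPM in every library, which does not check the degron, since auxin acts on the protein. By the test given below it was higher with auxin on day 4 (log2 fold change 0.29) and day 6 (0.34). It had no call on day 2 or in ES cells. After washout from day 4 it was lower than with auxin on day 4 (-0.41) and day 6 (-0.30). After washout from day 6 it was lower than with auxin on day 6 (-0.40). Among counts from 1 to 20, 59.6% to 60.5% were even in the 4 washout libraries, 65.9% to 72.2% in the other differentiation libraries and 66.2% to 78% in the ES libraries; what this difference does to the washout results was not tested.

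In ES cells Pou3f1 had the highest level per exon length of the 4 Pou3f genes, and in the day 6 control it had the lowest. Per kb of exon, the 0 h ES libraries held 2.37 ± 0.51 CPM of Pou3f1 (SD, n = 2), 0.294 ± 0.0209 of Pou3f3, 0.140 ± 0.00229 of Pou3f2 and 0.130 ± 0.00709 of Pou3f4. Pou3f1 therefore made up 77.5% and 83.4% of the summed per-length level of the 4 genes in the 2 libraries. In the day 6 control the levels were 3.64 ± 0.157 CPM per kb for Pou3f2, 3.45 ± 0.117 for Pou3f3, 1.36 ± 0.252 for Pou3f4 and 0.512 ± 0.0419 for Pou3f1, and Pou3f1 made up 5.49% and 5.92%. Pou3f2 and Pou3f3 overlapped there, at 42.7% and 38.6% of the sum for Pou3f2 and 38.3% and 38.6% for Pou3f3. Pantr1 reached 1.06 ± 0.0913 CPM per kb in the day 6 control.

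**Figure D1:**
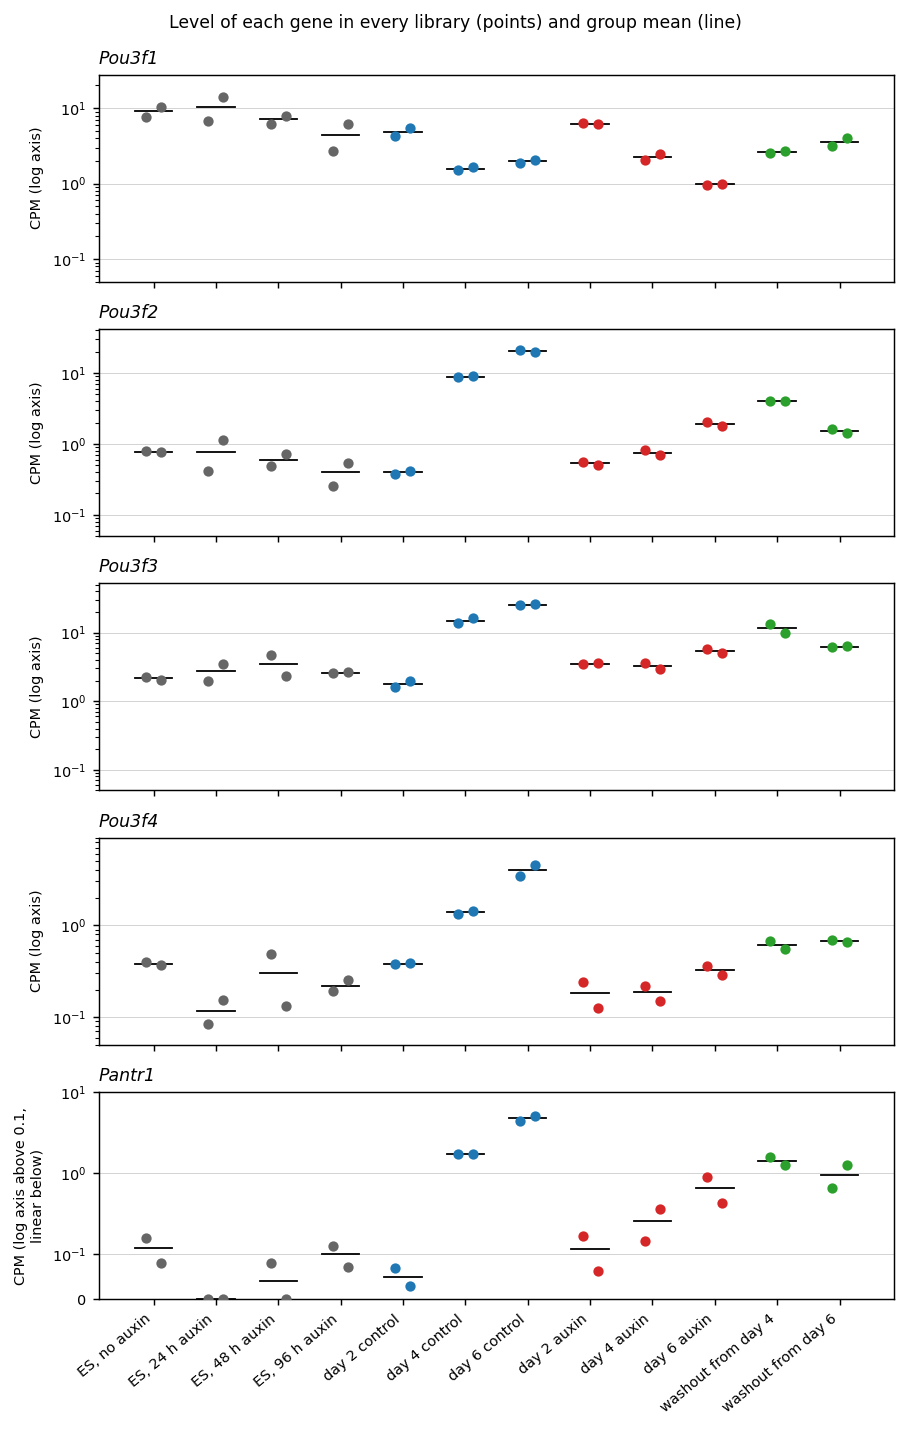
Level of each gene (CPM on a log axis, linear below 0.1 CPM for Pantr1) in both libraries (points) of each of the 12 groups, with the group mean as a line. Pou3f2 reached 20.9 and 19.7 CPM and Pantr1 4.43 and 5.01 CPM in the day 6 control, above all other groups, whereas Pou3f1 was highest in ES cells.

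Over the control differentiation, 4 of the 5 genes rose between day 2 and day 4 and Pou3f1 fell. Pou3f2 stood at 0.375 and 0.421 CPM on day 2, at 8.70 and 9.0 CPM on day 4 and at 20.9 and 19.7 CPM on day 6. Pou3f3 went from 1.60 and 1.95 CPM to 13.6 and 16 CPM and then to 25 and 26.2 CPM. Both genes were higher in each library of a later day than in any library of an earlier one. Pou3f4 stood at 0.375 and 0.391, 1.32 and 1.44, and 3.47 and 4.51 CPM on the same days. Pantr1 stood at 0.0682 and 0.0301 CPM on day 2, from 4 and 2 counts, then at 1.74 and 1.70 and at 4.43 and 5.01 CPM. Pou3f1, in contrast, was at 4.23 and 5.50 CPM on day 2, 1.51 and 1.67 CPM on day 4 and 1.86 and 2.08 CPM on day 6.

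From day 2 to day 4 of the control all 5 genes passed the test (edgeR's quasi-likelihood test, Benjamini-Hochberg adjusted p below 0.05 over all 22587 genes tested), where 51.9% of all genes did (27.1% higher and 24.8% lower). Pou3f2 was 22.3-fold higher (log2 fold change 4.48 ± 0.16, SE, adjusted p = 8.5e-14), Pou3f3 8.42-fold (3.07 ± 0.17, adjusted p = 2.8e-11) and Pou3f4 3.64-fold (1.86 ± 0.28, adjusted p = 2e-05). Pantr1 had a log2 fold change of 5.12 ± 0.55 (adjusted p = 3.9e-07), which rests on the 6 counts of day 2. Pou3f1 was 3.03-fold lower (-1.60 ± 0.17, adjusted p = 4e-07). From day 4 to day 6, where 26.7% of all genes passed (13.6% higher and 13.1% lower), the 4 genes rose again, Pou3f4 by 2.91-fold (adjusted p = 5.9e-05), Pantr1 by 2.76-fold (0.0014), Pou3f2 by 2.31-fold (1.4e-07) and Pou3f3 by 1.73-fold (0.00022). Pou3f1 did not pass (0.32 ± 0.18, adjusted p = 0.22). With all 24 libraries in one fit, the last step no longer passed for Pou3f3 and Pantr1 (adjusted p = 0.13 for both).

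The summed level of the neuron markers (Tubb3, Dcx, Map2, Elavl3, Stmn2, Rbfox3) did not move one way with the 4 genes: it was 149 and 151 CPM in the day 2 control, 36.8 and 35.3 CPM on day 4 (2 of 6 higher, 3 lower) and 230 and 240 CPM on day 6 (5 of 6 higher). That of the endoderm markers (Sox17, Foxa2, Gata4, Gata6, Afp, Ttr) went from 242 and 247 CPM on day 2 to 584 and 595 CPM on day 4 (6 of 6 higher) and 478 and 489 CPM on day 6 (2 higher, 4 lower). From day 4 to day 6 that of the mesenchyme markers (Col1a1, Col1a2, Col3a1, Lum, Dcn, Postn) went from 44.5 and 43.8 to 459 and 456 CPM (6 of 6 higher). The neural progenitor markers (Sox1, Pax6, Nes, Sox2, Hes5, Fabp7) summed to 227 and 234 CPM on day 2. On day 4 their sum was 222 and 231 CPM (5 of 6 higher, 1 lower). On day 6 it was 234 and 234 CPM (2 higher, 3 lower). In bulk RNA, fewer cells of a type and less RNA per cell cannot be told apart, and the part of cell makeup in the rise of the 4 genes was not tested.

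The step from 0 h ES cells to the day 2 control gave no call for any of the 5 genes, where 18.1% of the 23831 genes tested in all 24 libraries passed and where 2 members had an unadjusted p below 0.05. Pou3f1 was at 7.74 and 10.5 CPM in 0 h ES cells and at 4.23 and 5.50 CPM on day 2 (log2 fold change -0.91 ± 0.34, adjusted p = 0.071). Pou3f2 was at 0.789 and 0.771 CPM and then at 0.375 and 0.421 CPM (-0.96 ± 0.37, adjusted p = 0.08). The libraries of the 2 stages did not overlap for either gene. DESeq2 called both lower (adjusted p = 0.024 for Pou3f1 and 0.026 for Pou3f2), and the ES and differentiation libraries also differ in their spread. A fit of only the 4 libraries of these 2 groups called 0 members, and 172 genes in all.

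In ES cells no member passed the test at any time of auxin. Of the 5 genes, Pantr1 was too low to be tested: it had 4 counts in each 0 h library, none in the 24 h libraries, 2 and 0 at 48 h and 4 in each at 96 h. A group with no count allows up to 0.0362 CPM at 24 h, taking 3 counts over both libraries. Pou3f1 was at 7.74 and 10.5 CPM without auxin, 6.67 and 14.0 CPM at 24 h, 6.26 and 7.91 CPM at 48 h and 2.73 and 6.10 CPM at 96 h. The 96 h libraries lay below both 0 h libraries (log2 fold change -1.06 ± 0.50, adjusted p = 0.63), but differed from each other by more than the 0 h libraries did. Pou3f2 was between 0.254 and 1.12 CPM, Pou3f3 between 1.96 and 4.66 CPM and Pou3f4 between 0.0834 and 0.482 CPM over the 8 ES libraries.

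These comparisons had 0 of 20361 genes called (0% at each time) with edgeR, although 545, 1031 and 1744 genes had an unadjusted p below 0.05 at 24, 48 and 96 h; 0 members did. DESeq2 called 76, 154 and 365 genes and 0 members. The ES libraries with the same number deviated together, and with the number as a replicate block 25, 36 and 628 genes were called, again with 0 members. The common dispersion was 0.134 in the ES fit and 0.0051 in the differentiation fit.

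On day 2 of differentiation Pou3f3 was higher with auxin, and no other member passed. Pou3f3 was at 1.60 and 1.95 CPM in the control and at 3.45 and 3.61 CPM with auxin, which did not overlap (2.00-fold, log2 fold change 1.00 ± 0.18, adjusted p = 0.00073). That is 1 of 5 members, where 18.4% of all genes passed (9.92% higher and 8.49% lower). Pou3f1 was at 6.31 and 6.11 CPM with auxin beside 4.23 and 5.50 CPM in the control (0.36 ± 0.16, adjusted p = 0.12), and Pou3f2 at 0.563 and 0.506 beside 0.375 and 0.421 CPM (0.43 ± 0.23, adjusted p = 0.3). Pou3f4 was at 0.244 and 0.127 CPM with auxin beside 0.375 and 0.391 CPM (-1.06 ± 0.38, adjusted p = 0.061). Without replicate 1 of the day 2 auxin group Pou3f4 passed (-1.59, adjusted p = 0.028), and in the fit of all 24 libraries Pou3f3 did not (0.99, adjusted p = 0.13). Pantr1 was at 0.169 and 0.0633 CPM with auxin and 0.0682 and 0.0301 CPM without, too few counts to tell a change (1.20 ± 0.91, adjusted p = 0.41).

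On day 4, with auxin, Pou3f2, Pou3f3, Pou3f4 and Pantr1 were lower than in the control. Pou3f2 was at 0.807 and 0.698 CPM beside 8.70 and 9.0 CPM, 11.9-fold lower (log2 fold change -3.57 ± 0.14, adjusted p = 1.3e-11). Pou3f3 was at 3.60 and 2.91 CPM beside 13.6 and 16 CPM, 4.60-fold lower (-2.20 ± 0.15, adjusted p = 7.1e-09). Both auxin libraries lay below both controls for each gene. Pou3f4 was at 0.220 and 0.152 CPM beside 1.32 and 1.44 CPM, 7.50-fold lower (-2.91 ± 0.32, adjusted p = 1.9e-06). Pantr1 was at 0.147 and 0.364 CPM beside 1.74 and 1.70 CPM, 6.51-fold lower (-2.70 ± 0.41, adjusted p = 8.4e-05), with 8 and 24 counts in the auxin libraries. So 4 of 5 members passed, all lower, where 23.6% of all genes passed and 11.8% were lower. Pou3f1 was at 2.05 and 2.46 CPM with auxin and at 1.51 and 1.67 CPM without (0.50 ± 0.18, adjusted p = 0.057).

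On day 6 all 5 members were lower with auxin, where 29.2% of all genes passed and 15.3% were lower. Pou3f2 was at 2.02 and 1.80 CPM beside 20.9 and 19.7 CPM (10.7-fold lower, -3.42 ± 0.13, adjusted p = 1.9e-12), and Pou3f3 at 5.77 and 5.12 beside 25 and 26.2 CPM (4.73-fold, -2.24 ± 0.15, adjusted p = 1.9e-09). Pou3f4 was at 0.364 and 0.288 CPM beside 3.47 and 4.51 CPM (12.2-fold, -3.61 ± 0.28, adjusted p = 1.5e-08). Pantr1 was at 0.892 and 0.433 CPM beside 4.43 and 5.01 CPM (7.10-fold, -2.83 ± 0.34, adjusted p = 4.3e-06). These 4 genes were thus at 8.17% to 21.3% of their mean day 6 control level. Pou3f1 was at 0.958 and 0.991 CPM beside 1.86 and 2.08 CPM (2.04-fold, -1.03 ± 0.20, adjusted p = 0.00063), and in the fit of all 24 libraries it did not pass (adjusted p = 0.12).

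**Figure D2:**
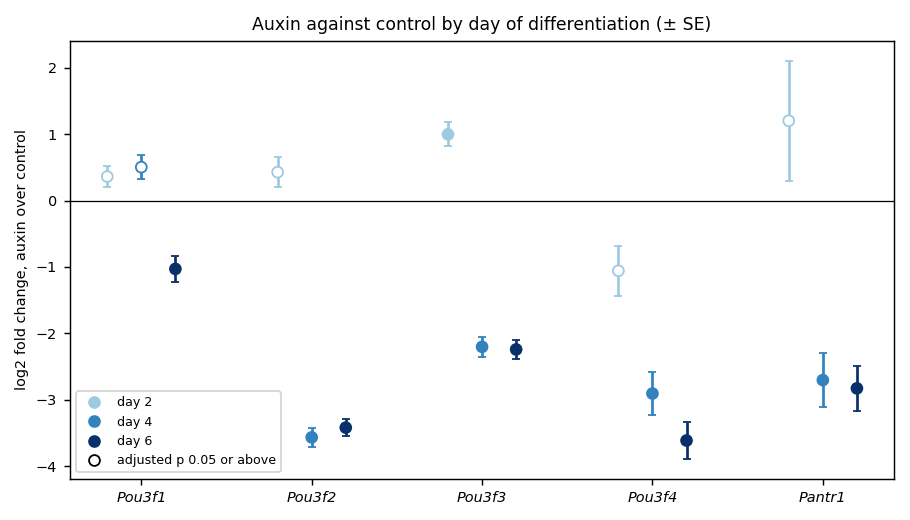
Log2 fold change of auxin over control (points, ± SE from edgeR) for each gene on days 2, 4 and 6, filled where the adjusted p was below 0.05. Pou3f2 fell to -3.57 on day 4 and -3.42 on day 6, and Pou3f1 was below 0 on day 6 but not on days 2 and 4.

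The auxin effect itself differed between days. It was lower on day 4 than on day 2 for 4 of 5 members, where 10.1% of all genes had a different effect (4.66% higher and 5.46% lower), and lower on day 6 than on day 4 for Pou3f1, where 4.34% did (2.1% higher and 2.24% lower). Pou3f2, Pou3f3, Pou3f4 and Pantr1 had no call for a difference between days 4 and 6, with differences of 0.15 ± 0.20, -0.04 ± 0.21, -0.71 ± 0.46 and -0.12 ± 0.59. Between days 2 and 4 the differences for Pou3f2 (-3.995 ± 0.28, adjusted p = 6.3e-08) and Pou3f3 (-3.20 ± 0.24, adjusted p = 1.4e-07) passed with each library left out. Those for Pou3f4 (-1.85 ± 0.52, adjusted p = 0.032) and Pantr1 (-3.91 ± 1.01, adjusted p = 0.019) were both lost without replicate 2 of the day 2 control (0.075 and 0.087), replicate 1 of the day 2 auxin group (0.24 and 0.13) or replicate 1 of the day 4 auxin group (0.051 and 0.055). Pou3f4 was also lost without replicate 1 of the day 2 control (0.089), either day 4 control library (0.058 and 0.084) or replicate 2 of the day 4 auxin group (0.13). In the fit of all 24 libraries the difference for Pou3f1 between days 4 and 6 (-1.53 ± 0.27, adjusted p = 0.0024) was lost as well (0.76).

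Marker levels also differed between auxin and control. On day 2 the neural progenitor markers summed to 206 and 212 CPM with auxin and 227 and 234 CPM without (1 of 6 higher, 2 lower). The neuron markers summed to 132 and 119 beside 149 and 151 CPM (1 of 6 higher, 3 lower). The endoderm markers summed to 295 and 306 beside 242 and 247 CPM (4 of 6 higher, 1 lower). On day 4, the 6 ES markers (Pou5f1, Nanog, Zfp42, Esrrb, Klf4, Tfcp2l1) summed to 844 and 838 CPM with auxin and to 490 and 493 CPM without, and on day 6 to 655 and 642 beside 281 and 270 CPM; all 6 were higher with auxin on both days. The 6 neural progenitor markers (Sox1, Pax6, Nes, Sox2, Hes5, Fabp7) summed to 153 and 155 CPM with auxin and 222 and 231 CPM without on day 4, with 5 of 6 lower, and to 164 and 169 beside 234 and 234 CPM on day 6, with 6 of 6 lower. The neuron markers summed to 22 and 21.2 CPM with auxin and 230 and 240 CPM without on day 6, all 6 lower, and the mesenchyme markers to 245 and 234 beside 459 and 456 CPM, all 6 lower. None of these 24 markers was at 0 in both libraries of a day 4 or day 6 group. The part of cell makeup in the auxin effect on the members was not tested.

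Under auxin the members still moved between days. From day 2 to day 4 with auxin, where 49.8% of all genes passed (25.2% higher and 24.6% lower), 1 member did: Pou3f1 was 2.74-fold lower (-1.46 ± 0.17, adjusted p = 9.1e-07), beside 3.03-fold in the control. Pou3f2 had a log2 fold change of 0.49 ± 0.20 (0.074) and Pou3f3 of -0.13 ± 0.17 (0.57) over the same days, and Pantr1 passed only without replicate 1 of the day 2 auxin group (2.05, adjusted p = 0.042). From day 4 to day 6 with auxin, where 26.1% of all genes passed (12.7% higher and 13.4% lower), 3 members were higher and Pou3f1 was lower (2.31-fold, adjusted p = 2e-04). Pou3f2 was 2.56-fold higher (adjusted p = 7.3e-06), Pou3f3 1.69-fold (0.0021) and Pantr1 2.54-fold (0.04), from levels far below the control of the same day. The Pantr1 call did not hold without either replicate 1 of the day 4 auxin group (adjusted p = 0.28) or replicate 1 of the day 6 auxin group (0.43). In the fit of all 24 libraries only Pou3f2 passed among the 4.

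After washout from day 4 the 4 genes that were lower with auxin on day 4 were higher than in the day 4 auxin group that preceded it. Pou3f2 was at 3.97 and 4.05 CPM (5.44-fold higher, 2.44 ± 0.15, adjusted p = 4.4e-10) and Pou3f3 at 13.4 and 9.70 CPM (3.63-fold, 1.86 ± 0.16, adjusted p = 2.4e-08). Pantr1 was at 1.59 and 1.24 CPM (5.43-fold, 2.44 ± 0.42, adjusted p = 0.00013) and Pou3f4 at 0.681 and 0.552 CPM (3.39-fold, 1.76 ± 0.35, adjusted p = 0.00053). Here 45.2% of all genes passed (22.5% higher and 22.8% lower). Pou3f1, at 2.57 and 2.69 CPM, did not (0.24 ± 0.18, adjusted p = 0.28).

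Against cells kept in auxin to day 6, all 5 members were higher after washout from day 4, where 34.4% of all genes passed (17.4% higher and 17% lower). The log2 fold changes were 1.45 ± 0.20 for Pou3f1, 1.09 ± 0.13 for Pou3f2, 1.10 ± 0.15 for Pou3f3, 0.93 ± 0.32 for Pou3f4 and 1.10 ± 0.37 for Pantr1, with adjusted p-values of 2e-05, 6.1e-06, 1.7e-05, 0.033 and 0.028. The last 2 calls did not hold without replicate 1 of the day 4 washout group (0.17 and 0.16) or replicate 2 of the day 6 auxin group (0.19 and 0.26), nor in the fit of all 24 libraries (0.27 and 0.28); the one for Pou3f4 also failed without replicate 2 of the washout group (0.051) or replicate 1 of the day 6 auxin group (0.067), and with all counts halved (0.056). Against the day 6 control, Pou3f2, Pou3f3, Pou3f4 and Pantr1 were still lower after this washout, where 33.9% of all genes passed (16.8% higher and 17.1% lower). They stood at 19.7% ± 0.262 (SD, n = 2), 45.2% ± 10.2, 15.4% ± 2.30 and 30.0% ± 5.23 of the control mean, and the Pantr1 call was at 0.052 in the fit of all 24 libraries. Pou3f1 stood at 134% ± 4.10 and did not pass (0.42 ± 0.18, adjusted p = 0.077).

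After washout from day 6 only Pou3f1 and Pou3f4 were higher than in the day 6 auxin group, where 40.1% of all genes passed (20.4% higher and 19.7% lower). Pou3f1 was at 3.11 and 3.98 CPM beside 0.958 and 0.991 CPM (3.68-fold, 1.88 ± 0.19, adjusted p = 5.2e-07). Pou3f4 was at 0.692 and 0.660 beside 0.364 and 0.288 CPM (2.08-fold, 1.06 ± 0.31, adjusted p = 0.013), a call that did not hold without replicate 2 of the day 6 auxin group (0.096) or replicate 1 of the washout group (0.053), nor in the fit of all 24 libraries (0.15). Pou3f2 was at 1.63 and 1.42 beside 2.02 and 1.80 CPM (-0.32 ± 0.15, adjusted p = 0.098). Pou3f3 was at 6.12 and 6.33 beside 5.77 and 5.12 CPM (0.21 ± 0.15, adjusted p = 0.29), and Pantr1, at 0.657 and 1.26 CPM, overlapped the auxin group (0.54 ± 0.38, adjusted p = 0.27). Against the day 6 control, where 36.7% of all genes passed (18.5% higher and 18.1% lower), Pou3f1 was 1.80-fold higher (0.85 ± 0.17, adjusted p = 0.00077, with 0.15 in the fit of all 24 libraries). The other 4 were lower, at 7.48% ± 0.729 of the control mean for Pou3f2, 24.3% ± 0.560 for Pou3f3, 16.9% ± 0.566 for Pou3f4 and 20.3% ± 8.97 for Pantr1. No control of the same age as the cells washed out from day 6 was analysed here.

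**Figure D3:**
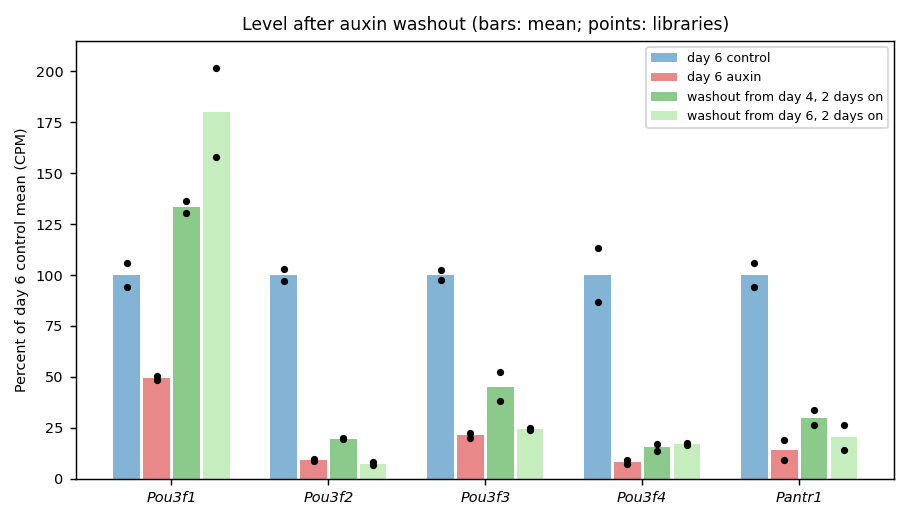
Level of each gene as a percent of its mean day 6 control CPM in the day 6 control, the day 6 auxin group and the 2 washout groups (bars, mean; points, both libraries). Pou3f2 was at 9.39% with auxin, 19.7% after washout from day 4 and 7.48% after washout from day 6, while Pou3f1 was at 134% and 180% after washout.

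The washout comparisons share the day 6 auxin and day 6 control libraries. The mesenchyme markers summed to 547 and 523 CPM after washout from day 4 and to 1073 and 1036 CPM after washout from day 6, beside 245 and 234 CPM in the day 6 auxin group and 459 and 456 CPM in the day 6 control. All 6 were higher in each washout group than in the day 6 auxin group. The neuron markers summed to 33.2 and 34.5 CPM and to 39.3 and 41.6 CPM in the 2 washout groups, with 4 of 6 higher in each than in the day 6 auxin group. The endoderm markers summed to 577 and 613 CPM after washout from day 4 (2 of 6 higher than with auxin on day 6) and to 751 and 707 CPM after washout from day 6 (5 of 6 higher), beside 559 and 550 CPM in the day 6 auxin group. The ES markers summed to 498 and 499 CPM (4 of 6 lower) and to 455 and 442 CPM (5 of 6 lower, 1 higher) in the 2 washout groups, beside 655 and 642 CPM. The neural progenitor markers summed to 239 and 230 CPM after washout from day 4 and 260 and 242 CPM after washout from day 6. With auxin on day 6 they summed to 164 and 169 CPM, and in the day 6 control to 234 and 234 CPM. In each washout group 5 of these 6 were lower and 1 higher than in the day 6 control. Against day 6 auxin, 2 were higher and 1 lower after washout from day 4, and 2 higher and 2 lower from day 6. The part of all these markers in the members' levels was not tested.

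The summed per-length level of the 4 Pou3f genes was 1.71 ± 0.277 CPM per kb in the day 2 control, 4.47 ± 0.327 on day 4 and 8.97 ± 0.255 on day 6. With auxin it was 2.25 ± 0.0583, 1.22 ± 0.0211 and 1.44 ± 0.101 CPM per kb on the same days. On day 4 Pou3f1 made up 9.23% and 9.21% of it in the control and 43.1% and 52.8% with auxin, and on day 6 5.49% and 5.92% beside 16.5% and 18.8%. Pou3f3 made up 51.5% and 50.4% on day 6 with auxin, beside 38.3% and 38.6% in the control, and Pou3f2 23.9% and 23.6%, beside 42.7% and 38.6%. After washout from day 6 Pou3f1 made up 37.4% and 43.7% and Pou3f2 13.5% and 10.7%.

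**Figure D4:**
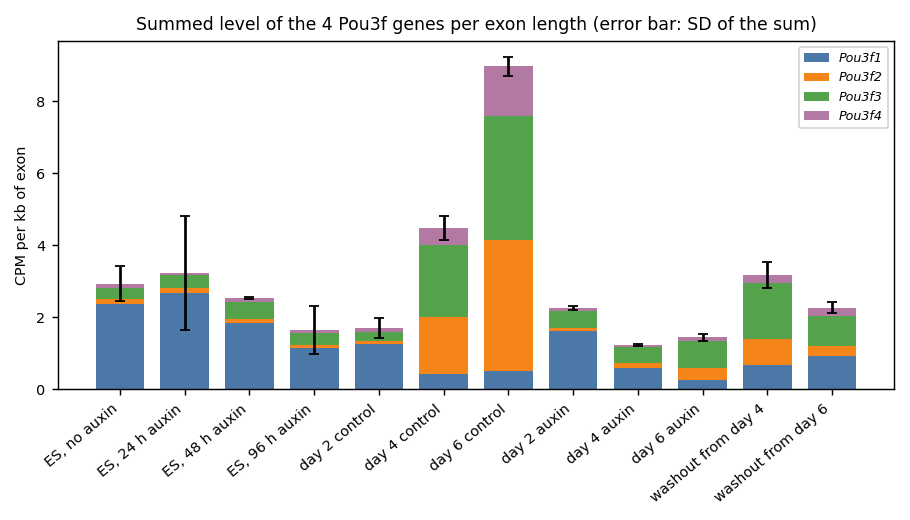
Summed level of the 4 Pou3f genes in CPM per kb of exon by group (stacked bars, group means of each gene; error bars, SD of the sum over the 2 libraries). The sum rose from 1.71 to 8.97 in the control from day 2 to day 6 and was 1.44 on day 6 with auxin, and most of it was Pou3f1 in the ES and day 2 groups.

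Pantr1 and Pou3f3 start 926 bases apart, and their levels were compared per exon length. Pantr1 was at 7.07% and 2.56% of the Pou3f3 level per kb in the day 2 control, at 21.2% and 17.6% on day 4 and at 29.5% and 31.8% on day 6. With auxin it was at 8.13% and 2.92%, 6.78% and 20.8%, and 25.7% and 14.0% on the same days. The day 6 auxin libraries both lay below the day 6 control, while on day 4 the auxin libraries lay on either side of one control library, with 8 and 24 counts of Pantr1. After washout from day 4 the values were 19.7% and 21.3%, and from day 6 17.8% and 33.0%. Over the 12 group means of log2 CPM, Pearson's r was 0.92 between Pou3f3 and Pantr1, 0.97 between Pou3f2 and Pou3f3 and 0.89 between Pou3f2 and Pou3f4, while Pou3f1 ran from -0.51 (with Pou3f4) to -0.77 (with Pantr1). These points share libraries and the course of differentiation, and the coefficients are descriptions.

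By mean level the groups did not fall in the same order for each gene. For Pou3f2 the day 6 control (20.3 ± 0.875 CPM), day 4 control (8.85 ± 0.215), day 4 washout (4.01 ± 0.0532), day 6 auxin (1.91 ± 0.151) and day 6 washout (1.52 ± 0.148) followed each other without overlap between neighbours, and each was above the remaining 7 groups by mean. Pou3f3 had the 2 controls first (25.6 ± 0.870 and 14.8 ± 1.71 CPM), then the day 4 washout (11.6 ± 2.61), the day 6 washout (6.23 ± 0.143) and day 6 auxin (5.44 ± 0.459), also without overlap between neighbours. For Pou3f4 the 2 washout groups overlapped each other (0.676 ± 0.0226 and 0.616 ± 0.0919 CPM) below the day 6 and day 4 controls. For Pantr1 the day 4 washout (1.42 ± 0.247 CPM), day 6 washout (0.957 ± 0.423) and day 6 auxin (0.662 ± 0.325) overlapped in turn. Pou3f1 had its highest means in the ES groups of 24 h (10.3 ± 5.16 CPM), 0 h (9.12 ± 1.96) and 48 h (7.09 ± 1.16), which overlapped, and its lowest on day 6 with auxin (0.975 ± 0.0232), apart from the day 4 control (1.59 ± 0.114).

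Of the 11 other POU genes, 9 were tested in the differentiation libraries. With auxin 3 were higher and 0 lower on day 2, 3 higher and 0 lower on day 4, and 2 higher and 3 lower on day 6. With 18.4%, 23.6% and 29.2% of all genes called on these days, nothing about the family is read from these counts. On day 6, Pou2f2, known from B cells, fell by 1.54 on the log2 scale with auxin (adjusted p = 2.3e-07). Pou2f3 rose by 1.98 ± 0.29 (3.2e-05), and Pou5f1, the Oct4 gene of pluripotent cells, was at 173 and 169 CPM with auxin beside 84.6 and 78.7 CPM (1.05 ± 0.07, adjusted p = 3e-09). On day 4, Pou2f3 (1.27 ± 0.26, adjusted p = 0.0015), Pou5f1 (0.63 ± 0.07, adjusted p = 2.5e-06) and Pou4f1 (0.54 ± 0.13, adjusted p = 0.004) were higher. On day 2, Pou4f2 (1.49 ± 0.44, adjusted p = 0.023), Pou2f2 (0.91 ± 0.13, adjusted p = 6.3e-05) and Pou4f1 (0.69 ± 0.13, adjusted p = 0.0013) were higher.

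Of 16 genes reported as partners or targets of Pou3f factors, 11 were lower and 3 higher with auxin on day 4, and 12 lower and 1 higher on day 6. On day 2, 4 were lower and 2 higher. Of all genes, 11.8% were lower on day 4, 15.3% on day 6 and 8.49% on day 2. The totals called on day 4 and on day 6 were smaller whichever library of the 2 groups compared was left out. Such a fit leaves 1 library in a group. Several of them (Sox1, Sox2, Pax6, Nes and Fabp7) are also among the neural progenitor markers above. On day 6 the genes with the largest changes were Fabp7, Dll1 and Sox1. Fabp7, a fatty acid binding protein of radial glia, was at 5.26 and 4.47 CPM in the control and at 0.0330 and 0 CPM with auxin (adjusted p = 2.1e-06). Dll1, a Notch ligand, was at 1.09 and 1.21 CPM with auxin beside 7.64 and 6.60 CPM (-2.64 ± 0.16, adjusted p = 1e-09), and Sox1 at 2.54 and 2.58 beside 14.5 and 16.4 CPM (-2.61 ± 0.15, adjusted p = 3.9e-10). Sox1 was already lower with auxin on day 2 (-0.99 ± 0.13, adjusted p = 3e-05). In the control from day 2 to day 4, 11 of the 16 rose and 4 fell, where 51.9% of all genes passed.

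Within 500 kb of the members' start sites the annotation lists 76 other genes, of which 74 were in the count table and 33 were tested in the differentiation libraries. With auxin 1 was higher and 0 lower on day 2, 1 higher and 8 lower on day 4, and 2 higher and 9 lower on day 6. Of all genes 18.4%, 23.6% and 29.2% passed on these days. In either direction together, the neighbours' counts lay below that share on day 2 and near it on days 4 and 6. By direction, 8.49%, 11.8% and 15.3% of all genes were lower and 9.92%, 11.8% and 13.9% higher. The neighbours called on days 4 and 6 were mostly lower, and whether their direction differs from that of all genes was not tested. Around Pou3f3 and Pantr1, 9 neighbours were tested, and 3 were lower on day 6: Pantr2, Gpr45 and Fhl2. Pantr2, a noncoding gene within 50 kb, was at 0.0330 and 0.0360 CPM with auxin beside 0.228 and 0.274 CPM (-2.81 ± 0.75, adjusted p = 0.0089). In the day 6 auxin group 3 counts over both libraries would be 0.0259 CPM, so the Pantr2 fold change rests on few counts. On day 4 Pantr2 did not pass (-0.73 ± 0.73, adjusted p = 0.55). Gpr45, an orphan receptor, was at 0.991 and 1.24 beside 3.26 and 3.62 CPM (-1.64 ± 0.19, adjusted p = 2.7e-06) and was already lower on day 4 (-1.03 ± 0.21, adjusted p = 0.0012). Fhl2 was higher with auxin on day 2 (0.67 ± 0.11, adjusted p = 0.00028) and lower on day 4 (-0.50 ± 0.07, adjusted p = 5.2e-05) and day 6 (-0.37 ± 0.07, adjusted p = 6e-04), the same signs as Pou3f3 and smaller sizes.

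Around Pou3f1, 18 neighbours were tested. On day 6 Maneal (-1.73 ± 0.17, adjusted p = 4.2e-07), Rspo1 (-0.79 ± 0.21, adjusted p = 0.0082), Sf3a3 (-0.30 ± 0.07, adjusted p = 0.004) and 9930104L06Rik (-0.25 ± 0.08, adjusted p = 0.022) were lower and Zc3h12a was higher (0.38 ± 0.13, adjusted p = 0.037). On day 4 Maneal (-1.04 ± 0.17, adjusted p = 0.00022), Fhl3 (-0.59 ± 0.15, adjusted p = 0.0087), Sf3a3 (-0.24 ± 0.07, adjusted p = 0.019) and 9930104L06Rik were lower, and Epha10 was higher (1.14 ± 0.27, adjusted p = 0.0047). Utp11 and Fhl3, the tested genes within 50 kb of Pou3f1, did not pass on day 6 (-0.16 ± 0.08 and -0.23 ± 0.14). Around Pou3f2, 5 neighbours were tested. Faxc was lower on day 4 (-0.96 ± 0.12, adjusted p = 1.3e-05) and day 6 (-0.76 ± 0.12, adjusted p = 7.2e-05), and Fbxl4 was higher on day 6 (0.20 ± 0.07, adjusted p = 0.04). Gm30731, within 50 kb, had no count in the auxin libraries of either day, beside 0.163 and 0.192 CPM in the day 6 control (adjusted p = 0.01), and Gm11878 did not pass. The 1 tested neighbour of Pou3f4 did not pass on any day. The number of neighbours called on days 2, 4 and 6 changed when single libraries were left out, and so did the number of all genes called. Such a fit leaves 1 library in a group.

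**Figure D5:**
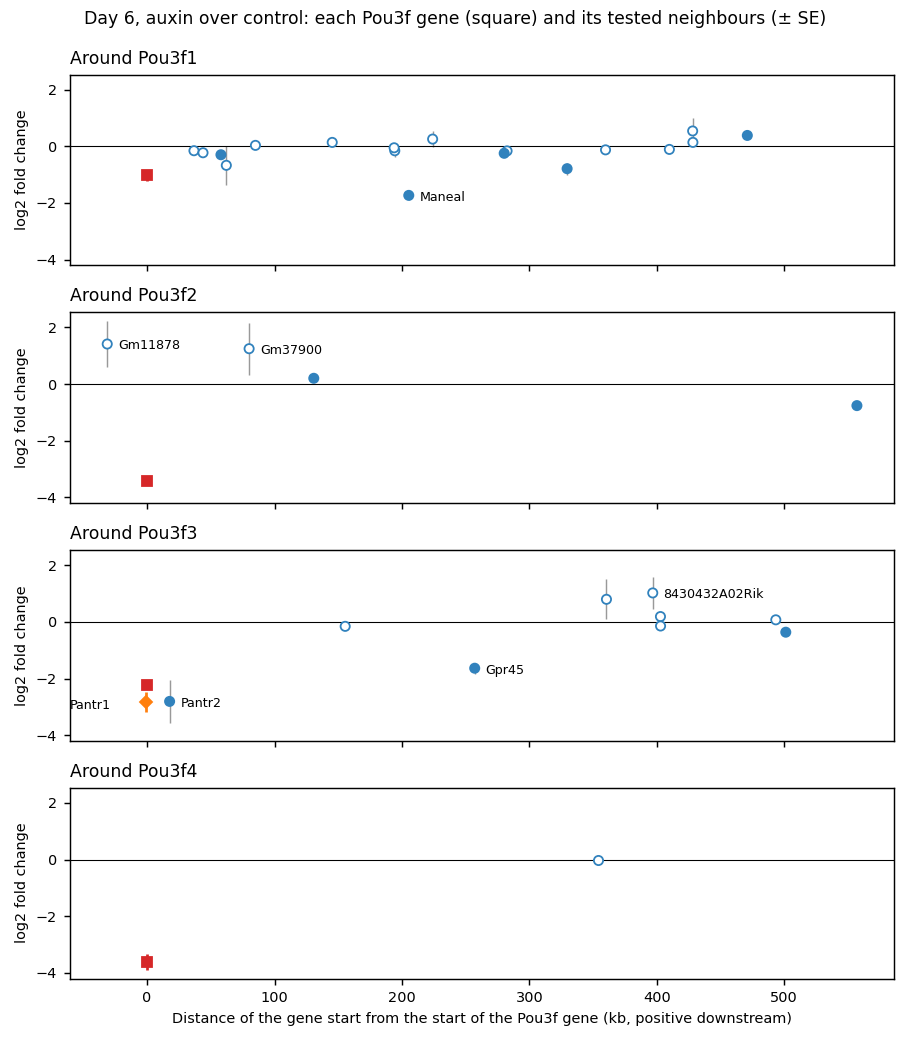
Log2 fold change of auxin over control on day 6 (± SE) for each Pou3f gene (square), Pantr1 (diamond) and the tested neighbours (circles, filled where the adjusted p was below 0.05), by distance of the gene start in kb; Gm30731, at 0 with auxin, is not drawn. Pou3f2 and Pou3f3 lay at -3.42 and -2.24, and Pantr2 at -2.81 and Gpr45 at -1.64 were the lowest neighbours of Pou3f3. The Pantr2 value rests on few counts with auxin.

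The genes whose 12 group means followed each member most closely, by Pearson's r of log2 CPM among 13207 or 13208 genes, differed between the members. Plppr3 came first for Pou3f2 (r = 0.97) and for Pou3f3 (0.97). Pou3f2 was next followed by Pou3f3 itself (0.97) and Dpysl4 (0.94), and Pou3f3 by Sbk1 (0.94) and Ccdc157 (0.93). For Pou3f4 they included Tagln3 and Bmpr1b (0.91 each), and for Pantr1 Rhno1, Onecut2 and Irs1 (0.98 each). For Pou3f1 they were Polr2k, Hpf1 and Mrps31 (0.96 each). By Spearman's rho 1 of the 3 was kept for Pou3f1 and for Pantr1 and 0 for the other members, so the names depend on the measure. Rhno1 headed the Pantr1 list by both measures.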

How the data were processed

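The deposited table holds whole-number read counts per gene, which the authors made with STAR and HTSeq on mm10, with edgeR also named, per the submitters' processing notes. Their versions, the annotation and the strand setting: not given in the sources used here. One line without a gene name, with 0% of the counts, was dropped. The 5 genes and all lists were chosen with earlier results of these data known. Counts were tested with edgeR 4.0.16 (TMM scaling, genes kept by its low-count filter with a minimum of 10 and a total of 15, robust quasi-likelihood test, Benjamini-Hochberg adjustment over all genes, threshold 0.05) in R 4.3.3. ES comparisons were fitted in 8 libraries, differentiation comparisons in 16, and day 2 against ES cells in 24; 18 comparisons were made. The fits were tested on simulated data. In the ES libraries equal replicate numbers deviated together (correlations of 0.144 to 0.515 in 6 of 6 pairs), whereas in the differentiation libraries they did not (-0.113 to 0.0708, 28 pairs).

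Alternatives were a threshold of 0.01, 1 fit of all 24 libraries (only the 4 libraries for day 2 against ES cells), the replicate number as a block, DESeq2 1.42.0, RLE size factors, no filter, counts divided by 2 because even counts prevailed, and each library left out in turn. Genes named beside the members were the 4 with the largest change per list and comparison, neighbours within 500 kb that changed with auxin or lay within 50 kb, and the 3 genes most alike (mean log2 CPM at least 1, prior count 2); some genes that these rules name are not reported here. The floor of 3 counts covers counting error only. Proteins were not used here.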

Additional observations from a re-analysis of the deposited data

Results flagged for a closer look

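The auxin effect differed between days of differentiation for each of the 5 genes, by edgeR's test of the difference between 2 log2 fold changes. From day 2 to day 4 the effect fell by 4.00 ± 0.28 (SE) on the log2 scale for Pou3f2 (adjusted p = 6.3e-08), from 0.43 to -3.57. For Pou3f3 it fell by 3.20 ± 0.24 (1.4e-07), from 1.00 to -2.20, so that the sign of a called effect turned between these days. The day 2 call for Pou3f3 did not hold in the fit of all 24 libraries (log2 fold change 0.99, adjusted p = 0.13). The difference was -3.91 ± 1.01 for Pantr1 (adjusted p = 0.019) and -1.85 ± 0.52 for Pou3f4 (adjusted p = 0.032), and both rest on few counts on day 2. For Pou3f1 it fell by 1.53 ± 0.27 (0.0024) from day 4 to day 6, from 0.50 to -1.03. Over the alternatives, the adjusted p ran from 3.2e-05 to 0.76 for Pou3f1, from 3.6e-05 to 0.2 for Pantr1 and from 0.0063 to 0.58 for Pou3f4. The Pou3f4 difference was lost in the fit of all 24 libraries (0.58), with counts halved (0.091) and without any of 7 single libraries (0.051 to 0.24).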

How the results depend on the processing

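RLE size factors and no low-count filter left the number of members called in each comparison within 1.5 times. At an adjusted p below 0.01, 3 members passed for day 4 washout against day 6 auxin, 1 for day 6 washout against day 6 auxin and 2 for the auxin effect on day 4 minus that on day 2. With all 24 libraries in one fit the numbers were 2 for day 6 against day 4 control, 0 for auxin on day 2, 1 for day 6 against day 4 auxin, 3 and 1 for the same washout comparisons, 2 for the difference between days 2 and 4 and 0 for that between days 4 and 6. With counts halved, the difference between days 2 and 4 had 2 and day 2 control against 0 h ES cells 1; DESeq2 gave 2 for the latter. No called value changed its sign.

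With the replicate block, day 2 control against 0 h ES cells had 1 member (Pou3f1, adjusted p = 0.026), the other member counts stayed within 1.5 times, Pou3f1 passed on day 4 with auxin (0.04) and Pantr1 no longer passed for day 6 against day 4 auxin (0.051); in the differentiation libraries the samples share only a number.

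With each library left out, 1 to 2 members passed for auxin on day 2, 2 to 4 for the difference between days 2 and 4, 1 to 2 for day 4 against day 2 auxin, 3 to 4 for day 4 washout against day 6 auxin and 1 to 2 for day 6 washout against day 6 auxin. The fits without a library assume that the lone sample of a group varies like the other groups. In the fit of all 24 libraries, partners and targets called with auxin numbered 1, 6 and 6 on days 2, 4 and 6, other POU genes 0, 1 and 2, and neighbours 0, 1 and 3. Of all 23831 genes tested in that fit, 312, 809 and 1569 were called on these days. In the fit of 16 libraries 4157, 5336 and 6596 of 22587 were. Neighbours on day 6 were 7 at the threshold of 0.01 or without the filter, where 4551 and 6711 of all genes were called. DESeq2 gave 4 neighbours on day 2, where it called 4458 of all genes. Depth limits Pantr1 and Pou3f4 in the ES and day 2 libraries.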
